A study of Mus musculus with 12 samples.

Results

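Fatty acid elongases and desaturases are the membrane enzymes of the endoplasmic reticulum that lengthen fatty acids and place double bonds in them. The group described here was chosen by gene symbol and holds 9 of the 26031 genes with counts in the deposited liver tables: the elongases Elovl1, Elovl2, Elovl3, Elovl5 and Elovl6, the desaturases Fads1 and Fads2 of polyunsaturated fatty acids, and the stearoyl-CoA desaturases Scd1 and Scd2. All 9 had counts in the high-fat diet (HFD) and vehicle libraries, 8 in chow (not Scd2) and 7 in the PCN libraries (neither Fads2 nor Scd2), and 7 had counts in all 12 libraries.

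An elongase carries out the condensation that sets which acyl chain is extended, and the other steps of each round are shared enzymes. Elovl6 extends the palmitate made by fatty acid synthase, and Scd1 then introduces a double bond to give oleate, the main monounsaturated fatty acid stored in liver triglyceride. Fads2, Elovl5, Fads1 and Elovl2 act along the pathway that turns dietary linoleic and alpha-linolenic acid into arachidonic and docosahexaenoic acid. In liver these genes are known as targets of SREBP-1c, the insulin-responsive regulator of lipid synthesis, and of the nuclear receptors LXR and PPAR-alpha.

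Liver RNA was sequenced from C57BL/6N mice placed at 6 weeks of age on regular chow or HFD, which they ate for 15 weeks. There were 4 groups of 3 samples: chow with no treatment, HFD with no treatment, HFD with vehicle (30% DMSO in corn oil), and HFD with PCN at 50 mg/kg. PCN, taken here as pregnenolone 16α-carbonitrile, activates the rodent pregnane X receptor. Injections were intraperitoneal, given 1 time daily for 4 days, and the labels do not say whether the chow and untreated HFD mice were handled in any similar way. Comparisons of an injected group with an untreated one therefore hold the injection, the solvent and the handling together, which cannot be told apart. Comparisons of an injected group with chow also hold the diet, and those of the PCN group with an untreated one also hold PCN. The labels also do not state that each replicate is a separate animal, so p-values measure the spread between these samples. With 3 libraries against 3, the smallest p of an exact permutation test on any member is 0.10.

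The 6 libraries with counts of all genes held 7466378 (HFD replicate 38) to 38161486 counts (HFD replicate 4), and those of the other groups were estimated at 11500000 to 35400000. In a principal component analysis of the 6 complete libraries, vehicle replicate 55 lay apart on the first component (60.8, the others -28.2 to 16.2) and HFD replicate 38 on the second (50.9, the others -35.6 to 15.7). Several values that rest on them are given with and without them. The liver label was checked against 12 hepatocyte markers, whose summed normalized counts were 1852084 to 2531926 in HFD and 1978780 to 2546012 in vehicle libraries. Of the fat cell markers, Adipoq, Plin1 and Retn had 0 to 4 counts in each of these 6 libraries. Fabp4 and Cfd, which other cells can also express, were higher, with normalized counts of 267 to 362 and 164 to 360 in HFD and 80.4 to 155 and 62.4 to 205 with vehicle. In bulk liver, fewer cells of a type and less RNA per cell cannot be told apart.

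In the authors' tables, which use GRCm38, 5 of the 9 genes lie on chromosome 19. Positions below are the authors' and strands are from GENCODE M21, whose entries for these 5 genes did not match the authors' positions in full. Fads2 (ENSMUSG00000024665, minus strand, chr19:10064164-10101503) and Fads1 (ENSMUSG00000010663, plus strand, chr19:10182888-10196870) are 81384 bases apart. Scd2 (ENSMUSG00000025203, plus strand, chr19:44293676-44306864) and Scd1 (ENSMUSG00000037071, minus strand, chr19:44394451-44407709) are 87586 bases apart, and Elovl3 (ENSMUSG00000038754, plus strand) spans chr19:46131897-46135307. The others are Elovl1 (ENSMUSG00000006390, plus strand, chr4:118428093-118432953), Elovl2 (ENSMUSG00000021364, minus strand, chr13:41182381-41220405), Elovl5 (ENSMUSG00000032349, plus strand, chr9:77917364-77984519) and Elovl6 (ENSMUSG00000041220, plus strand, chr3:129532355-129638495).

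RefSeq promoter windows on GRCm38.p6, running from 250 bases before to 50 bases after an annotated start, were found for 5 of the 9 members (7 windows). The 3 below, chosen after their values were seen, belong to elongases that parted under treatment. They are Elovl5, which was low in both injected groups, and Elovl6 and Elovl1, which rose with PCN over vehicle, Elovl6 to levels that overlapped untreated HFD. All 3 windows are on the plus strand and written 5′ to 3′. The Elovl5 window is chr9:77917115-77917414, the Elovl6 window chr3:129532136-129532435 and the Elovl1 window, the upstream of its 2, chr4:118427843-118428142. Capitals mark matches on either strand to CCAAT (the box bound by NF-Y), CACGTG (an E-box), TCACNCCAC (a sterol response element), AGGTCA or AGTTCA (core sequences of nuclear receptor sites).
Elovl5: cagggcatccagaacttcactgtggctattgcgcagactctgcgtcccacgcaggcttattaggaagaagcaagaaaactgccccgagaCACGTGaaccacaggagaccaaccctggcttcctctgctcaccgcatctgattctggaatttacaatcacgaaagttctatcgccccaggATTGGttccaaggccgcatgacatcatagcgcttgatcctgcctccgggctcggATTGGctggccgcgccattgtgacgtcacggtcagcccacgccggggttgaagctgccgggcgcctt
Elovl6: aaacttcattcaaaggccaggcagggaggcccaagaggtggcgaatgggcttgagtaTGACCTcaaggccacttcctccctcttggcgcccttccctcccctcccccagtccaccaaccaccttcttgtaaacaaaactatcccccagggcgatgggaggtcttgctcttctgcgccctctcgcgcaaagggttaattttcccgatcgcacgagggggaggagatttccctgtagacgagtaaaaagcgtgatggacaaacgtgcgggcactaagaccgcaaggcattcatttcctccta
Elovl1: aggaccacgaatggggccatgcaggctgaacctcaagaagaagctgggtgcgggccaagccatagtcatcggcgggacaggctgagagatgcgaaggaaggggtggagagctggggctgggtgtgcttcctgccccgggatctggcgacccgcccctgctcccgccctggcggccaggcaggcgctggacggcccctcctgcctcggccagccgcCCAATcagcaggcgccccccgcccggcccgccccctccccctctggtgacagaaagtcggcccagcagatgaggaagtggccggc
The Elovl5 window held CCAAT boxes on the minus strand at -71 and -17 from the start site and a CACGTG at -161. The Elovl6 window held 1 of these motifs, an AGGTCA on the minus strand at -193, and the Elovl1 window held a CCAAT at -35. Elovl1 also had 5 matches to the GC box GGGCGG at -101 to -8, which are not marked by capitals, and the one at -39 overlaps the CCAAT. Of the other 4 member windows, the downstream one of Elovl1 held an AGGTCA at -95 and 2 GC boxes, 1 of the 2 of Elovl2 held 5 GC boxes and the Fads2 window held 1. Neither TCACNCCAC nor AGTTCA was in any of the 7 windows, nor were 2 longer motifs that contain AGGTCA, the repeats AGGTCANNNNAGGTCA and AGGTCANAGGTCA. Over 32851 RefSeq windows of the same length, 37.4% held CCAAT, 7.15% CACGTG, 1.24% TCACNCCAC, 35.7% GGGCGG, 16.3% AGGTCA and 14% AGTTCA. The repeats were in 0.0152% and 0.0396% of windows. These matches describe letters in a window, not bound sites.

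The members spanned more than 3 orders of magnitude per length in liver. As CPM (counts scaled to the library total) per kilobase of exon in untreated HFD livers, Scd1 stood at 2130 ± 408 (SD, n = 3), above Elovl5 at 252 ± 70.8. Next came Fads2 at 134 ± 59, Fads1 at 111 ± 18.1 and Elovl2 at 110 ± 11.4, whose ranges overlapped (92.9 to 202, 93.9 to 130 and 98.3 to 121). Elovl3 followed at 35.9 ± 19, Elovl6 at 11.3 ± 3.93 and Elovl1 at 7.91 ± 1.57, the last pair with overlapping ranges. Scd2, the form known best from brain, was lowest at 1.46 ± 0.659. With vehicle Scd1 was still highest in mean but at 133 ± 107, with libraries at 28 to 241. Elovl2 (69.3 ± 13.9), Fads2 (66 ± 8.18), Fads1 (59.5 ± 7.18) and Elovl5 (55.1 ± 15.2) then formed a group with overlapping ranges. Elovl5 thus went from the second place to the fifth, and Elovl6 (2.79 ± 0.351) from above Elovl1 to below it (6.26 ± 0.463).

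**Figure D1:**
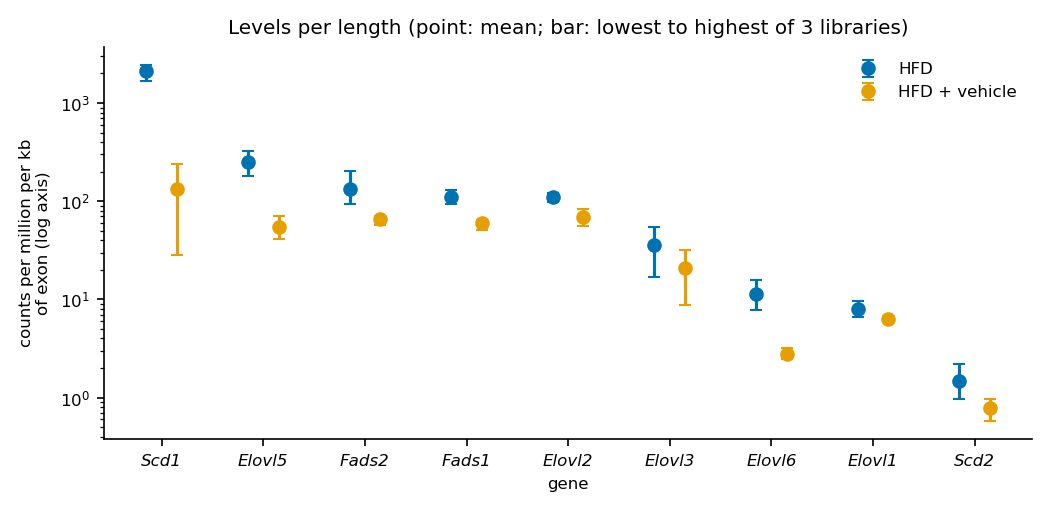
CPM per kilobase of exon (log axis) for the 9 genes in untreated HFD and vehicle livers. Points are means and bars run from the lowest to the highest of 3 libraries. Scd1 lies at 2130 in HFD and 133 with vehicle, while Elovl1 lies at 7.91 and 6.26.

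Below, a fold is the ratio of group means of normalized counts. In the 5 tables that list only genes past the authors' DESeq2 test (adjusted p under 0.05), a listed gene is said to rise or fall. A member without counts in a group was not listed in that comparison, so it counts among the 9 as not called. In HFD against chow 2 of the 9 members fell, Elovl2 and Elovl3, and 0 rose, where 4.85% of all genes were called (2.81% higher, 2.05% lower). In vehicle against chow 7 of 9 fell, every one but Elovl1 and Scd2, and 0 rose (background 3.10%, 1.72% higher and 1.38% lower). In PCN against chow 4 of 9 fell, Elovl2, Elovl3, Elovl5 and Scd1, and 2 rose, Elovl1 and Elovl6 (background 8.10%, 4.43% higher and 3.67% lower). In PCN against vehicle, where both groups were injected, 3 of 9 rose, Elovl1, Elovl6 and Fads1, and 0 fell (background 1.71%, 1.07% higher and 0.641% lower). In PCN against untreated HFD Elovl1 rose and Elovl2 and Elovl5 fell, 3 of 9 (background 3.15%, 1.90% higher and 1.25% lower). Groups recur across these comparisons, so the counts are not independent of each other. The shares over all genes given here, and below for vehicle against HFD, also stand behind the counts of list genes further on.

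A second test of the same counts with edgeR's quasi-likelihood method passed fewer genes. It covered only the listed genes and the members with counts, so no other gene could pass and a lower number was partly built in. The percentages here are passes over all genes estimated as tested by the authors, most of them not covered by edgeR. This edgeR test passed 0 members in HFD against chow (4 had an unadjusted p under 0.05), where 0.400% of genes passed. It passed Elovl2, Elovl5 and Elovl6 in vehicle against chow (0.325% of genes) and Elovl1, Elovl2, Elovl3 and Elovl5 in PCN against chow (3.08%). In PCN against vehicle it passed Elovl6 (0.0580% of genes) and in PCN against untreated HFD Elovl5 (0.526%).

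The table of vehicle against untreated HFD covers all genes and was tested afresh with edgeR's quasi-likelihood method. All 9 members had lower means with vehicle, with a median log2 ratio of -0.74 against 0.02 over all 13775 genes tested. For 6 of them (Elovl2, Elovl5, Elovl6, Fads1, Fads2 and Scd1) no vehicle library reached the lowest HFD library, a separation that 10.0% of all genes showed in that direction. By edgeR with Benjamini-Hochberg adjustment 0 of 9 passed, where 0.00726% of genes did, a single gene. The lowest adjusted p was 0.09, for Elovl5 and Elovl6, and 6 of the 9 had an unadjusted p under 0.05 (12.5% of genes did). Of the 9, the authors' deposited table passed 4: Elovl5, Elovl6, Fads1 and Scd1, all lower with vehicle (0.792% of genes were called, 0.281% as higher and 0.511% as lower). A DESeq2 fit of the same counts called 5, adding Fads2 at adjusted p = 0.0384 (1.03% of genes), and edgeR without its filter on low counts called 3, Elovl5, Elovl6 and Scd1 (1.09%).

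**Figure D2:**
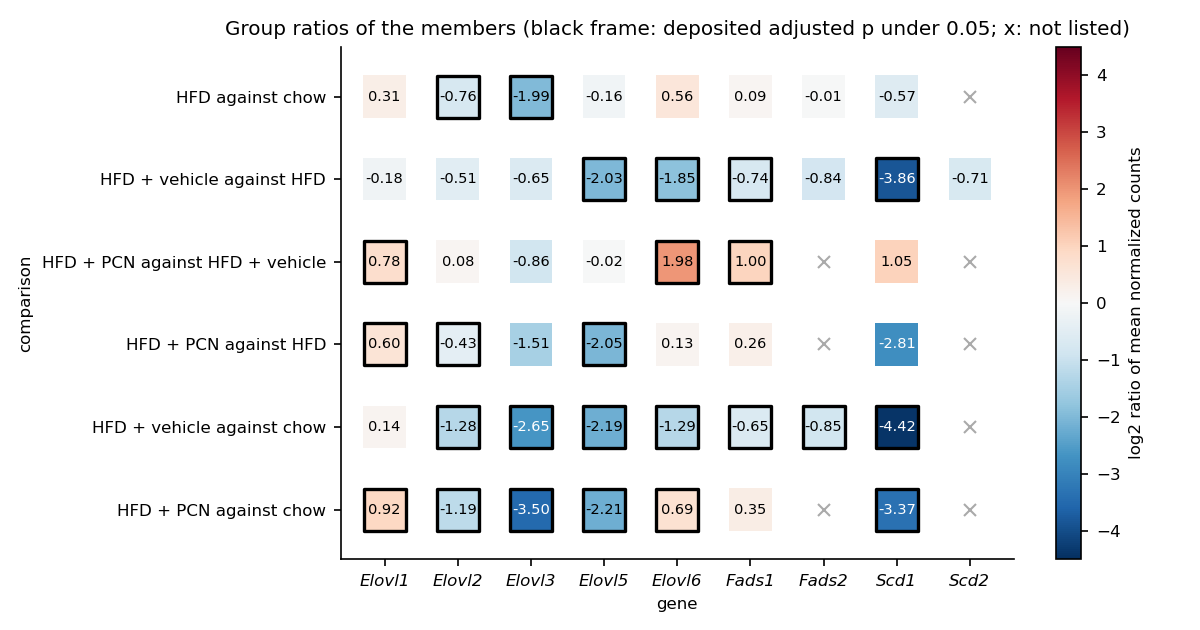
Log2 ratio of mean normalized counts for each gene (columns) in the 6 comparisons (rows), first group over second, in red where higher and blue where lower. Black frames mark genes called by the authors (deposited adjusted p under 0.05) and crosses mark genes not listed; in the vehicle row, where edgeR called none, Scd1 stands at -3.86, Elovl5 at -2.03 and Elovl6 at -1.85.

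Scd1, which makes oleate and palmitoleate from saturated acyl-CoA, showed the widest range of levels among the members. Its normalized counts were 347576, 183714 and 310552 in chow replicates 8, 17 and 19, and 210338, 159875 and 198653 in HFD replicates 4, 30 and 38. With vehicle they were 2850, 12655 and 23760 in replicates 15, 23 and 55, and with PCN 5464, 60906 and 14775 in replicates 5, 11 and 27. Every injected library lay below every uninjected one, while vehicle and PCN overlapped and spread 8.34-fold and 11.1-fold within their groups. Mean levels were 189622 ± 26416 in HFD and 13088 ± 10462 with vehicle (SD, n = 3), a 14.5-fold lower mean. The authors' deposited table gave this a log2 change of -1.69 ± 0.32 (SE, adjusted p = 0.00013), a value moderated toward 0, while edgeR gave adjusted p = 0.16. Without vehicle replicate 55 the edgeR estimate was 24.8-fold lower. Against chow (280614 ± 85935) Scd1 fell 21.4-fold with vehicle (adjusted p = 5.03e-06 in the authors' deposited table) and 10.4-fold with PCN (27048 ± 29689, adjusted p = 0.02). Those folds were 36.3 without vehicle replicate 55 and 27.7 without PCN replicate 11. The edgeR test passed neither, with adjusted p of 0.0705 and 0.0747, and called PCN against chow only without PCN replicate 11 (adjusted p = 0.0147).

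Between PCN and vehicle the Scd1 means differed 2.07-fold, with a difference of mean log2 levels of 0.84 ± 1.36 (SE). The log2 ratio of means was 1.05, turned sign without PCN replicate 11 (-0.37) and was 1.80 without vehicle replicate 55. Against untreated HFD the PCN mean was 7.01-fold lower and no library overlapped, yet Scd1 was not among the genes listed by the authors and edgeR gave adjusted p = 0.253. Without PCN replicate 11 the edgeR test did pass (log2 ratio -4.23, adjusted p = 0.0283). HFD and chow overlapped, with a difference of mean log2 levels of -0.52 ± 0.31 (SE). Scd2, which carries out the same reaction, had 123.6, 103.5 and 199.8 normalized counts in HFD and 94.5, 104.1 and 63.1 with vehicle. Its groups overlapped, and the mean was 1.63-fold lower with vehicle (edgeR adjusted p = 0.409). The ratio of Scd1 to Scd2 raw counts was 994 to 1702 in HFD libraries and 30.2 to 377 with vehicle, so the highest vehicle library lay below the lowest HFD one.

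Elovl6, the elongase of palmitate, was low with vehicle and high in the other HFD groups. Its normalized counts were 806, 879 and 979 in chow and 1267, 993 and 1663 in HFD. They were 334, 346 and 411 with vehicle, and 1084, 1449 and 1762 with PCN. The vehicle libraries lay below all 9 others, and PCN and untreated HFD overlapped. With PCN the gene rose 3.94-fold over vehicle (1432 ± 339 against 364 ± 41.7, SD, n = 3), with adjusted p = 7.63e-15 in the authors' deposited table and 0.0268 by edgeR on the listed genes. That edgeR call held without PCN replicate 5 (0.0401) and was lost without any of the other 5 libraries. Few genes of any kind passed in these runs (0 to 23), and the log2 ratio of Elovl6 stayed at 1.80 to 2.14. Vehicle stood 3.6-fold below untreated HFD (1307 ± 337), with adjusted p = 6.33e-12 in the authors' deposited table and 0.09 by edgeR. Against chow (888 ± 87) the gene fell 2.44-fold with vehicle (adjusted p = 1.29e-11 in the authors' deposited table, and 0.0233 by edgeR, lost on leaving out any 1 library). It rose 1.61-fold from chow with PCN (adjusted p = 0.00727 in the authors' deposited table, 0.102 by edgeR). HFD was 1.47-fold above chow without overlap but was not listed by the authors (edgeR adjusted p = 0.436). The difference between PCN and untreated HFD was 0.13 ± 0.30 (SE) on the log2 scale.

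Elovl1, an elongase of very long saturated and monounsaturated chains, was higher with PCN than in any other group. It had 345, 297 and 302 normalized counts in chow, 379, 357 and 437 in HFD and 336, 329 and 372 with vehicle. With PCN it had 577, 515 and 689, above every other library. The rise was 1.72-fold over vehicle (594 ± 87.8 against 346 ± 23.2, SD, n = 3, adjusted p = 0.00621 in the authors' deposited table), 1.52-fold over untreated HFD (adjusted p = 0.0243) and 1.89-fold over chow (adjusted p = 9.37e-06). By edgeR only the rise over chow passed, at adjusted p = 0.02, against 0.161 over vehicle and 0.155 over HFD. Without any of the chow libraries or PCN replicates 5 and 27 that edgeR call was lost too. Vehicle and HFD overlapped, with a log2 difference of -0.17 ± 0.10 (SE).

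Elovl3, an elongase of saturated and monounsaturated chains known from brown fat, skin and liver, was high in chow alone. Its normalized counts were 5851, 4615 and 5523 in chow, 1332, 2127 and 555 in HFD, 1322, 878 and 352 with vehicle and 484, 808 and 118 with PCN. All chow libraries lay above all others, and the 3 HFD groups overlapped each other, with 3.75-fold to 6.88-fold spreads inside a group. It fell 3.98-fold in HFD (1338 ± 786 against 5330 ± 641, SD, n = 3, adjusted p = 0.00919 in the authors' deposited table, 0.105 by edgeR). Vehicle against chow gave 6.27-fold lower (0.000116 in the authors' deposited table, 0.0623 by edgeR). PCN against chow gave 11.3-fold lower (0.000156 and 0.0244), or 17.8-fold without PCN replicate 11. That edgeR call was lost without PCN replicate 5 or any 1 of the chow libraries.

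**Figure D3:**
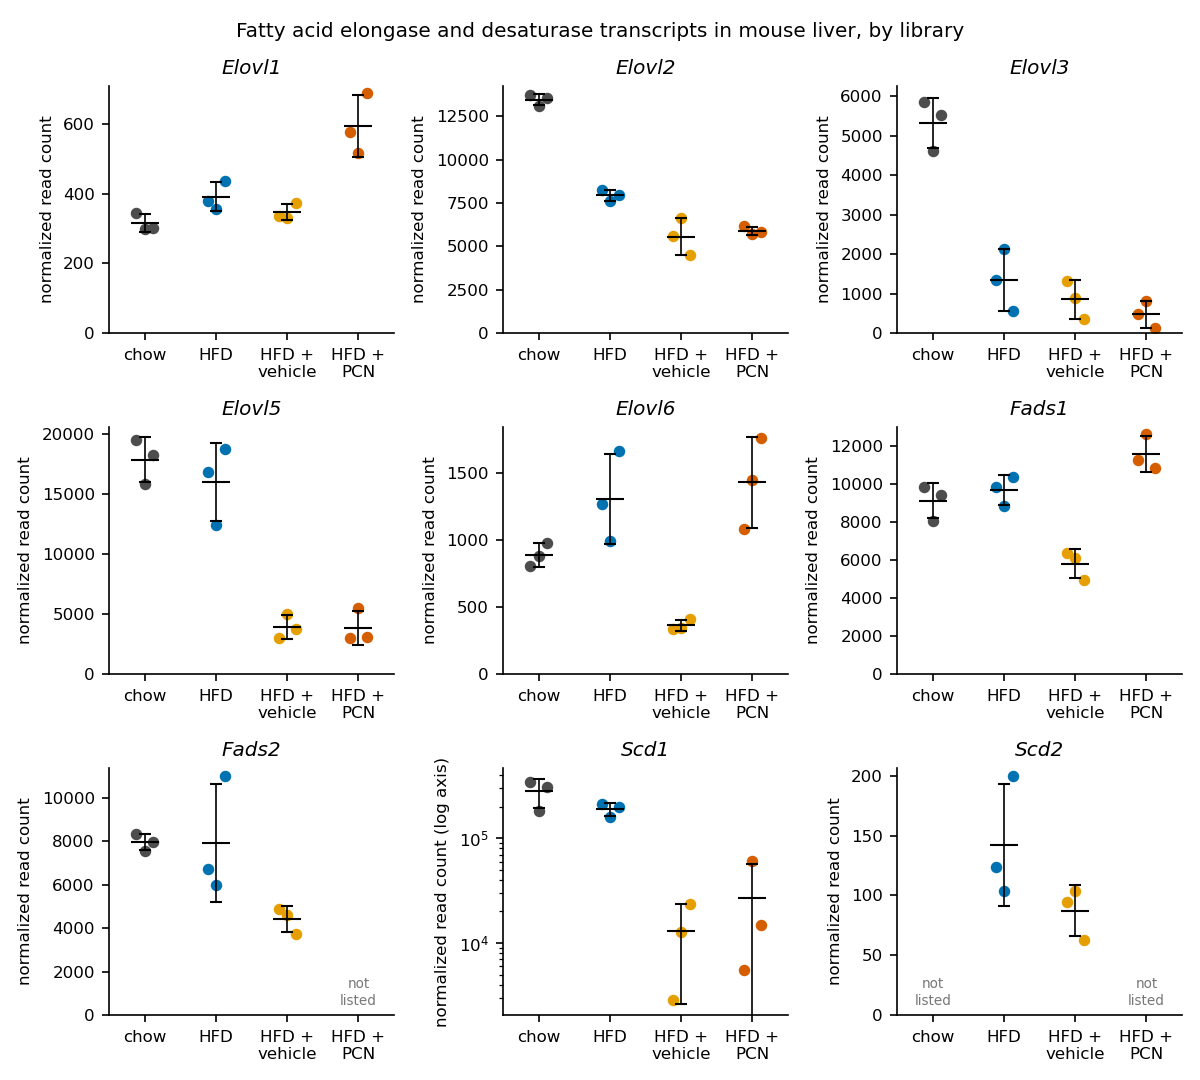
Normalized read counts of the 9 genes in each library (points) of the 4 groups, with the mean and SD of 3 libraries (black). The Scd1 axis is logarithmic and the lower end of its PCN bar, which would be below 0, is cut by the axis. Elovl6 lies at 334 to 411 with vehicle and 1084 to 1762 with PCN, while Elovl5 lies at 2985 to 5491 in both injected groups.

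Elovl5, which extends the polyunsaturated products of Fads2, was low in both injected groups. Normalized counts were 19529, 15873 and 18233 in chow, 16877, 12406 and 18768 in HFD, 3000, 4982 and 3781 with vehicle and 2985, 5491 and 3121 with PCN. Chow overlapped HFD and vehicle overlapped PCN, with a gap from 5491 to 12406 between the pairs. The mean fell 4.56-fold from chow with vehicle (3921 ± 998 against 17878 ± 1854, SD, n = 3), with adjusted p = 6.16e-24 in the authors' deposited table and 0.0233 by edgeR. With PCN (3866 ± 1409) it fell 4.63-fold from chow (9.07e-21 in the authors' deposited table, 0.00888 by edgeR) and 4.14-fold from untreated HFD (4.88e-12 and 0.0353). Vehicle stood 4.08-fold below untreated HFD (16017 ± 3267), with adjusted p = 2.16e-13 in the authors' deposited table and 0.09 by edgeR. Between PCN and vehicle the log2 difference was -0.05 ± 0.35 (SE), so the sign of the difference was not resolved. The edgeR call against chow held without each library in turn for PCN. For vehicle against chow it held only without vehicle replicate 23 (0.0195), and for PCN against HFD only without PCN replicate 11 (0.0163).

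Elovl2, which extends long polyunsaturated chains toward the precursor of docosahexaenoic acid, was highest in chow and fell in HFD and in both injected groups against chow. Its normalized counts were 13721, 13116 and 13572 in chow and 8255, 7632 and 7969 in HFD. They were 5605, 6609 and 4483 with vehicle and 6161, 5690 and 5824 with PCN. Chow, HFD and the injected groups did not overlap, and vehicle overlapped PCN. It fell 1.69-fold in HFD (7952 ± 312 against 13470 ± 315, SD, n = 3, adjusted p = 4.83e-13 in the authors' deposited table, 0.0733 by edgeR). Against chow it fell 2.42-fold with vehicle (4.71e-11 in the authors' deposited table, 0.0454 by edgeR, lost on leaving out any 1 library) and 2.29-fold with PCN (8.77e-22 and 0.00803, kept without each library in turn). Against untreated HFD it fell 1.35-fold with PCN (adjusted p = 0.016 in the authors' deposited table, 0.337 by edgeR). Vehicle was 1.43-fold below HFD (edgeR adjusted p = 0.306, 0.258 in the authors' deposited table), and PCN and vehicle differed by 0.10 ± 0.17 (SE, log2).

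Fads1, the desaturase that makes arachidonic acid, followed the order of Elovl6 at smaller folds. It had 9830, 8067 and 9449 normalized counts in chow, 9847, 8845 and 10357 in HFD, 6366, 6095 and 4954 with vehicle and 11289, 12619 and 10832 with PCN. Vehicle was below and PCN above every library of the other groups. PCN raised it 1.99-fold over vehicle (11580 ± 928 against 5805 ± 749, SD, n = 3, adjusted p = 2.32e-06 in the authors' deposited table, 0.137 by edgeR). With vehicle it fell 1.57-fold from chow (0.00328 in the authors' deposited table, 0.175 by edgeR) and stood 1.67-fold below untreated HFD (0.0026 and 0.174). PCN exceeded untreated HFD 1.2-fold and chow 1.27-fold, neither listed by the authors.

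Fads2, the desaturase of the entry step of the polyunsaturated pathway, had 8326, 7569 and 7992 normalized counts in chow and 6740, 5991 and 11019 in HFD. With vehicle it had 4897, 4594 and 3754, below every library of both other groups. PCN counts of Fads2 are missing because the authors listed it in no comparison with PCN, where only genes with an adjusted p under 0.05 are given. It fell 1.8-fold with vehicle from chow (4415 ± 592 against 7962 ± 379, SD, n = 3), with adjusted p = 4.1e-06 in the authors' deposited table and 0.0796 by edgeR. The mean was 1.79-fold below untreated HFD (7917 ± 2712), with edgeR adjusted p = 0.276. HFD replicate 38, the library with the fewest counts, was the highest of its group for 6 of the 9 members, Fads2 and Scd2 among them. Without it the edgeR log2 ratios of vehicle over HFD were -0.52 for Fads2 and -0.38 for Scd2, in place of -0.85 and -0.68. The ratio of Fads1 to Fads2 counts was 1.07 to 1.18 in chow, 0.94 to 1.48 in HFD and 1.3 to 1.33 with vehicle, with HFD overlapping both others and chow below vehicle.

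Ratios of raw counts between members inside a library do not depend on depth or scaling. Elovl6 to Elovl5 was 0.0413 to 0.0554 in chow, 0.075 to 0.0886 in HFD, 0.0695 to 0.111 with vehicle and 0.264 to 0.565 with PCN. The PCN libraries thus lay above all others, while HFD and vehicle overlapped. Fads1 to Elovl5 was 0.503 to 0.518 in chow, 0.552 to 0.713 in HFD, 1.22 to 2.12 with vehicle and 2.3 to 3.78 with PCN, with no overlap between any of the 4 groups. Scd1 to Elovl6 was 209 to 431 in chow, 119 to 166 in HFD, 8.54 to 57.8 with vehicle and 5.04 to 42 with PCN. Elovl1 to Elovl6 was 0.308 to 0.427 in chow, 0.263 to 0.36 in HFD, 0.906 to 1.01 with vehicle and 0.356 to 0.532 with PCN, so vehicle alone stood apart.

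**Figure D4:**
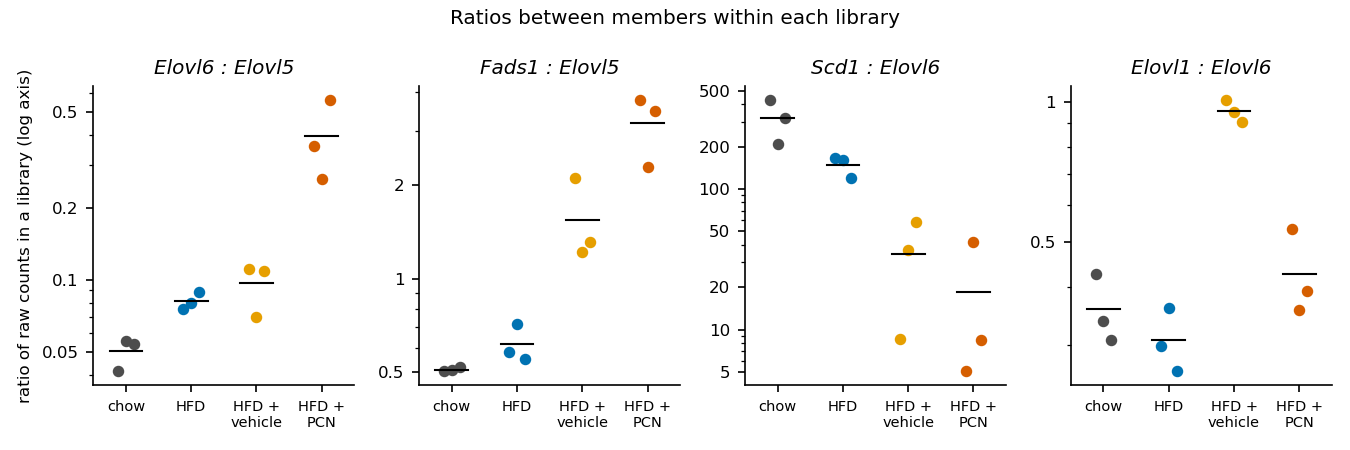
Ratios of raw counts of 4 pairs of members within each library (points, log axes) in the 4 groups, with the mean of 3 libraries as a line. Elovl6 to Elovl5 reaches 0.264 to 0.565 with PCN and Elovl1 to Elovl6 reaches 0.906 to 1.01 with vehicle.

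Over the 12 libraries the levels of some members went together. Elovl5 and Scd1 had a Pearson r of 0.948 between log2 levels, Elovl2 and Elovl5 0.835 and Elovl2 and Elovl3 0.832. Elovl6 and Fads1 had 0.895. Other values were lower, as for Elovl5 with Elovl6 (0.346) and Elovl5 with Fads1 (0.268), and Elovl1 ran opposite to Elovl3 (-0.797). These values describe 12 libraries in which the 3 of a group share its treatment. Among 1956 genes with counts in all libraries, the gene most like Elovl5 was Adipor2, an adiponectin receptor (0.963), followed by Tmem64 (0.962), Mrnip (0.958), Tjp3 (0.95) and Scd1 (0.948). Elovl6 and Fads1 were both most like Ugt1a9, a glucuronosyltransferase (0.915 and 0.913), and each was among the closest 3 of the other. Ugt1a exons are shared among the family, so its split of counts is uncertain. Next for Elovl6 came Gpam (0.86), Tkt (0.85) and Ugt1a5 (0.847), and for Fads1 Cyb5r3 (0.904), Gstm6 (0.891) and Stom (0.881). Elovl1 was most like Acat2, an enzyme of early cholesterol synthesis (0.976), followed by Nebl, Cda, Gm8834 and Gstm3 (0.971 to 0.944). Elovl2 was most like Selenoi, which makes phosphatidylethanolamine (0.954), followed by Tmem56, Rnf11, Srd5a1 and Abcb4 (0.953 to 0.944). Elovl3 was most like Bag4 (0.972), followed by Tymp, the acyl-CoA synthetase Acsl1, Dpy19l1 and Sco2 (0.968 to 0.964). Scd1 was most like Tjp3 (0.951), followed by Unc119b, Elovl5, Adipor2 and Pltp (0.95 to 0.927). The 1956 genes have counts in chow and PCN libraries only because some table called them, so the closest gene among all expressed genes may be another.

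Of 20 enzymes that serve elongation and desaturation beside the members, 13 passed the filter on low counts in the complete table. The median log2 ratio of vehicle over untreated HFD across the 13 was -0.14. By edgeR 0 were called and 2 had an unadjusted p under 0.05, as did 12.5% of all genes tested. In the authors' deposited table vehicle was below untreated HFD for 2 of them (0.511% of all genes were called lower). They were Hsd17b12, the reductase of the elongation cycle, at 2280 ± 236 against 3755 ± 38.9 normalized counts (adjusted p = 0.00045), and Cyb5r3, which passes electrons to cytochrome b5 for the desaturases, at 3626 ± 271 against 5845 ± 297 (0.000532). PCN raised 3 over vehicle in the authors' deposited table, where 1.07% of all genes rose. They were the electron carriers Cyb5a (1.88-fold, adjusted p = 0.0226) and Cyb5b (1.59-fold, 0.00501), and Cyb5r3 (1.57-fold, 0.0443). In PCN against untreated HFD, which also differ in the injection, Cyb5a was 2.1-fold, the dehydratase Hacd1 2.05-fold and the desaturase-like Fads6 1.47-fold higher. Hsd17b12 was 1.45-fold lower there (1.90% of all genes were called higher and 1.25% lower). Cytochrome b5 also serves cytochromes P450. HFD against chow called 0 of the 20. Vehicle against chow called 0 higher and 2 lower, among them Cyb5r3 (1.49-fold). PCN against chow called 3 higher, Cyb5a (2.08-fold), Fads6 (1.54-fold) and Cyb5b (1.38-fold), and 1 lower, where 8.10% of all genes were called.

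Fatty acid synthesis genes and their regulators, 26 in all, did not move with the members in every comparison. Per the authors' deposited table, 4 rose in HFD over chow, a comparison in which 0 members rose. They were Thrsp, a lipogenic regulator (7.83-fold), Srebf1, which encodes SREBP-1c (2.84-fold), fatty acid synthase Fasn (2.22-fold) and Acly, which supplies cytosolic acetyl-CoA (1.61-fold). Vehicle was below HFD for 3, Acacb (2.51-fold), Fasn (2.23-fold) and the NADPH-producing Me1 (2.22-fold) in the authors' deposited table, and edgeR called 0 (6 had an unadjusted p under 0.05). The median log2 ratio of the 25 past the filter was -0.01. Srebf1 itself was 3.41-fold above chow with vehicle (3891 ± 434 against 1142 ± 76.9, adjusted p = 5.19e-29 in the authors' deposited table), where 7 members were lower. PCN raised 5 over vehicle and lowered 0, with Fasn at 2.24-fold, Acss2 at 1.87-fold, Me1 at 1.69-fold and Acly at 1.46-fold. In PCN against untreated HFD, which also differ in the injection, Insig1 was 2.7-fold, Acss2 1.87-fold and Srebf2 1.71-fold higher. Against chow 9 rose with PCN and 2 fell, where 4.43% of all genes rose and 3.67% fell. The largest were Thrsp (4.68-fold higher), Srebf1 (2.53-fold), Insig1 (2.48-fold) and Mid1ip1 (2.27-fold). With vehicle 3 rose from chow, Mlxipl among them (2-fold), and 3 fell, with Insig2 2.61-fold and Me1 2.27-fold lower.

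Genes that act on the products were called most often in PCN against chow. That comparison also called the most of all genes (8.10%, against 0.792% to 4.85% in the others). Of 24 genes of fatty acid activation and acyl chain remodelling, vehicle against HFD called 0 in the authors' deposited table and 0 by edgeR, where 6 had an unadjusted p under 0.05. In PCN against vehicle 1 rose, the glycerol-phosphate acyltransferase Gpam (1.56-fold), and in PCN against HFD the acyl-CoA synthetase Acsl3 (2.9-fold) and the sterol acyltransferase Soat2 (1.61-fold) rose while Slc27a4 fell 1.43-fold. In HFD against chow 3 fell, Acsl1 (1.59-fold), Slc27a5 (1.44-fold) and Acsl5 (1.24-fold). In vehicle against chow Acsl1 and Acsl5 fell (both 1.66-fold) and Soat2 rose 1.53-fold. In PCN against chow 5 rose and 4 fell, with Acsl3 3.07-fold, Soat2 1.99-fold and Lpcat3, which places polyunsaturated chains in phospholipids, 1.91-fold higher, and Acsl1 2.53-fold lower.

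Of 18 genes of peroxisomal chain shortening, which completes docosahexaenoic acid, the authors' deposited table called 1 lower in vehicle against HFD, the thiolase Acaa1b (1.86-fold), and edgeR called 0 (3 had an unadjusted p under 0.05). In PCN against vehicle 1 fell, the carrier and thiolase Scp2 (1.55-fold). In PCN against HFD 4 fell and 1 rose, with Acaa1b 3.04-fold, Scp2 2-fold and Ehhadh 1.68-fold lower. In HFD against chow Ehhadh fell 2.15-fold. In vehicle against chow 3 fell, Ehhadh (3.29-fold), Acaa1b (1.99-fold) and Scp2 (1.35-fold). In PCN against chow 6 fell and 2 rose (3.67% and 4.43% of all genes did), with the same genes 3.62-fold, 3.26-fold and 2.09-fold lower. Of 20 genes of polyunsaturated fatty acid oxygenation and signalling, 2 rose in PCN against vehicle, the epoxide hydrolase Ephx1 (2.26-fold) and the phospholipase Pla2g6 (1.56-fold). Pla2g6 also rose in PCN against HFD (1.41-fold) and against chow (1.77-fold). Ephx2, which hydrolyses epoxides of polyunsaturated fatty acids, fell from chow in HFD (1.51-fold), with vehicle (1.44-fold) and with PCN (1.9-fold).

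Markers of other liver cells moved in some of the same comparisons. Between vehicle and untreated HFD, all 12 stellate cell markers had lower means with vehicle (median log2 ratio -0.53), as did 13 of 14 macrophage markers (-0.44) and 8 of 10 endothelial markers (-0.51), while the 12 hepatocyte markers had a median of 0.27. The summed stellate markers were 10906 to 14238 in HFD and 6288 to 10841 with vehicle, the macrophage markers 9367 to 15243 and 6624 to 9945, and the endothelial markers 7802 to 8871 and 5087 to 7712. The 7 fat cell markers with counts summed to 70306 to 124482 and 48623 to 107336, with Retn at 0 in every vehicle library. Car3 and Pck1 made up nearly all of these sums, at 21890 to 68538 and 26445 to 68137 normalized counts over the HFD and vehicle libraries. The sums therefore follow these genes and not the fat cell list as a whole. Of the 4 markers past the filter, 3 had lower means with vehicle (median log2 ratio -0.86). The cholangiocyte markers summed to 905 to 1507 in HFD and 735 to 1109 with vehicle. The authors' deposited table called 0 stellate or macrophage markers and called 4 markers of other types lower: the endothelial Lyve1 (2.38-fold) and Cdh5 (1.73-fold), the fat cell marker Fabp4 (2.49-fold, adjusted p = 0.001) and the cholangiocyte marker Krt23 (4.41-fold, adjusted p = 0.0367). Between HFD and chow, 9 of 14 macrophage, 5 of 12 stellate and 3 of 8 cholangiocyte markers rose, and 3 of 13 hepatocyte markers fell. Of 8 fat cell markers 1 rose, Fabp4 (3.77-fold). Of 10 endothelial markers 1 rose, Lyve1 (1.51-fold), and 1 fell, Kdr (1.47-fold). Of all genes 2.81% rose and 2.05% fell in this comparison. In PCN against chow 5 of 13 hepatocyte markers fell, among them Alb (2.15-fold) and Ttr (1.72-fold), and 5 stellate and 3 macrophage markers rose. Of 8 cholangiocyte markers 2 rose and 1 fell, and of 8 fat cell markers 2 fell. Of all genes 4.43% rose and 3.67% fell there. PCN against vehicle called 0 markers of the hepatocyte, stellate, macrophage, endothelial and cholangiocyte lists, and of the fat cell list 1 was lower, Cfd. PCN against untreated HFD called 3 fat cell, 2 stellate, 1 hepatocyte, 1 endothelial and 1 cholangiocyte marker lower and 0 higher (1.25% and 1.90% of all genes). Vehicle against chow called 2 cholangiocyte, 1 macrophage and 1 stellate marker higher and 0 lower (1.72% and 1.38% of all genes). The part of these shifts in the levels of the members was not tested.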

How the data were processed

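Liver RNA libraries of 12 mouse samples were analysed. The submitters' processing notes name HISAT2, HTSeq, DESeq2 and the build GRCm38/mm10, without roles. Their versions are not given in the sources used here. Raw counts per gene and library were deposited in 6 pairwise tables. Beside the deposited counts stand log2 fold changes with their errors, p-values and adjusted p-values, per the file headers, all with a decimal comma. Of the 6 tables, 5 give values only for genes with an adjusted p under 0.05, so there the deposited call is the test. Counts of a gene were the same in every table that lists it (15768 compared, 0 differed).

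Size factors were recovered from the deposited counts and means and put on 1 scale (largest difference 0.52%). Totals of the chow and PCN libraries were estimated from them, an estimate that was off by up to 16.6% where both were known. The complete table was tested with edgeR 4.0.16 in R 4.3.3 (quasi-likelihood, TMM, filterByExpr, 13775 genes). For the other 5, edgeR was run on the listed genes and the members with counts, using the recovered size factors and the dispersion trend and prior fitted to the complete table. Its p-values were adjusted by Benjamini-Hochberg for as many genes as each table is estimated to have tested (25101 to 25880). Both procedures were tested on simulated data. DESeq2 1.42.0 was an alternative. All tests were two-sided at an adjusted p of 0.05.

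The members and lists were chosen with earlier results of these data known. The text names every member and the 5 genes most correlated with each. List genes are taken, per list and comparison, from the up to 4 called ones with the largest ratio and a mean normalized count of at least 50, and markers are mostly given as counts and sums. A called gene of the peroxisomal list is not reported here. Likeness used log2 of the normalized count plus 1. Levels per length used GENCODE M21 exons. Replicate numbers differ between groups, so no block was used.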

Additional observations from a re-analysis of the deposited data

How the results depend on the processing

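No paired analysis was possible because the replicate numbers in the labels differ between groups. Between vehicle and untreated HFD the number of members called was 0 by edgeR, 4 in the authors' deposited table, 5 by a DESeq2 refit and 3 by edgeR without the filter on low counts, where the filter changes the genes tested and the cause was not tested further. RLE scaling gave 0. In the other comparisons edgeR called fewer members than the authors: 0 in place of 2 for HFD against chow, 1 in place of 3 for PCN against vehicle and for PCN against HFD, 3 in place of 7 for vehicle against chow and 4 in place of 6 for PCN against chow. Leaving out 1 library gave 0 to 0 members for HFD against chow and for vehicle against HFD, 0 to 1 for PCN against vehicle and for vehicle against chow, 0 to 2 for PCN against HFD and 2 to 5 for PCN against chow. Genes of any kind passing in these runs were 2 to 51 for HFD against chow and 0 to 9 for vehicle against HFD. They were 0 to 23 for PCN against vehicle, 0 to 46 for vehicle against chow, 0 to 178 for PCN against HFD and 137 to 712 for PCN against chow. The member counts are to be read beside these. Over 386 ratios of members under alternatives, 11 changed sign, 0 of them among the 208 values of the 25 comparisons called in the authors' deposited tables. Of those 208, 6 moved by over 1.5 times, all of Scd1 or Elovl3. The low total of HFD replicate 38 limits the precision of Scd2, which had 90 reads there.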
